A study of Homo sapiens with 96 samples.

Results

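The 1-day course of total RNA in U2-OS cells depleted of BMAL1 is described here, gene by gene, over its 24 libraries, which are 24 of the 96 libraries of the series. They were chosen by label alone: every knockdown total RNA library from CT00 to CT22 (circadian time in h, every 2 h, 12 times with 2 replicates each). The other 72 libraries are wild-type total RNA and the ribosome footprints of both treatments, and they are used only for comparison. U2-OS is a human osteosarcoma line, which here carries luciferase under the Per2 promoter. In every group the clocks were set with 0.1 µM dexamethasone, a synthetic glucocorticoid, the first collection came 24.5 h later, and cycloheximide at 100 µg/mL was given before lysis. Knockdown plates received 120 pmol of a pool of 5 siRNAs against Bmal1, while wild-type plates were seeded with more cells and received no siRNA. The labels give no control siRNA, so depletion, transfection and seeding density cannot be told apart between the treatments. Whether the 2 replicates of a time came from separate cultures is not stated, and the p-values therefore cover the spread between libraries alone, which may be technical.

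BMAL1, encoded by ARNTL, pairs with CLOCK on E-boxes (CACGTG) and switches on PER, CRY and REV-ERB genes, whose products shut the pair off again. Dividing cells carry a separate programme: DNA replication genes are transcribed at the G1/S border under E2F factors, histone genes in S phase, and mitotic genes in G2 and M phase, where the DREAM complex and then B-MYB with FOXM1 act on promoters with a CHR element (TTTGAA) and CCAAT boxes. In a population that divides at a steady rate and not in step, such genes stay level over the day.

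ARNTL, the target, had 3.36 CPM (reads scaled to a common library size) in the lowest knockdown library, 4.75 in the median and 6.49 in the highest, against 14.3, 32.7 and 47.9 CPM in wild-type. The ranges did not overlap, so the target separated the treatments as labelled. Recovered reads came to 13.6 to 20.1 M reads in 22 knockdown libraries, and to 2.66 and 2.56 M reads in replicate 2 at CT14 and CT18, which are called the low-depth libraries. These 2 held the highest value of 28.8% of the 13261 genes tested and the lowest value of 36.9%. Among the other 22 libraries, replicate 1 at CT08 stood apart most, with the highest value of 8.59% of genes and the lowest of 8.47%. Where the low-depth libraries end a call or move a value by much, the value without them is given too. Pairs of values at 1 time are replicate 1, then replicate 2, so the second value at CT14 or CT18 is always from a low-depth library. Of 6 bone markers, RUNX2, ALPL, SPARC, SPP1 and COL1A1 were read in every knockdown library and COL1A2 had 0 to 5 reads. The summed level of 6 epithelial markers was 7.67 to 15.3 CPM, that of 6 blood markers 9.95 to 17.6 CPM (CD68 carried most of it, and CD3E was at 0 throughout), and that of 5 endothelial markers 1.15 to 3.71 CPM. The 6 neuronal markers summed to 256 to 354 CPM, of which TUBB3, a tubulin, gave 245 to 333 CPM, while STMN2 had 0 to 6 reads.

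CCNB1, CKS2 and ARL6IP1 mark this course. CCNB1 is cyclin B1, which activates CDK1 for entry into mitosis. In replicate 1 it ran from 274 CPM at CT00 to 378 at CT06 and 398 at CT12, and back to 229 at CT22. Replicate 2 ran from 265 to 371, 404 and 219 CPM at the same times. Both replicates were thus highest in the middle of the day and lowest at its end, and the 2 values at CT12 lay above every other value of the course. The fitted 24-h wave of CCNB1 had an amplitude, the distance from the mean to the peak, of 0.35 ± 0.03 (log2 ± SE), which is 1.62-fold from trough to peak, and its peak fell at CT 9.22 ± 0.34 h (adjusted p = 1.53e-07). With a linear drift in the model the amplitude was 0.31 ± 0.03, the peak CT 10.4 and the adjusted p 1.33e-07.

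CKS2, a small subunit of cyclin-dependent kinases, moved less. Its replicates stood at 134 and 127 CPM at CT00, 175 and 171 at CT08, and 122 and 123 at CT20. The wave had an amplitude of 0.23 ± 0.02, a peak at CT 9.19 and an adjusted p of 6.44e-08, and 0.22 ± 0.02 at CT 9.64 with the drift (adjusted p = 1.33e-07). ARL6IP1, a membrane-shaping protein of the endoplasmic reticulum, had the lowest p of all genes in both models. It rose from 251 and 252 CPM at CT00 to 400 and 385 at CT12 and stood at 245 and 225 at CT22. Its amplitude was 0.33 ± 0.03 at CT 9.63 (adjusted p = 1.88e-08), and 0.32 ± 0.03 at CT 9.93 with the drift (adjusted p = 6.01e-08). For these 3 genes the peaks fitted in each replicate alone lay at most 0.215 h apart.

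**Figure D1:**
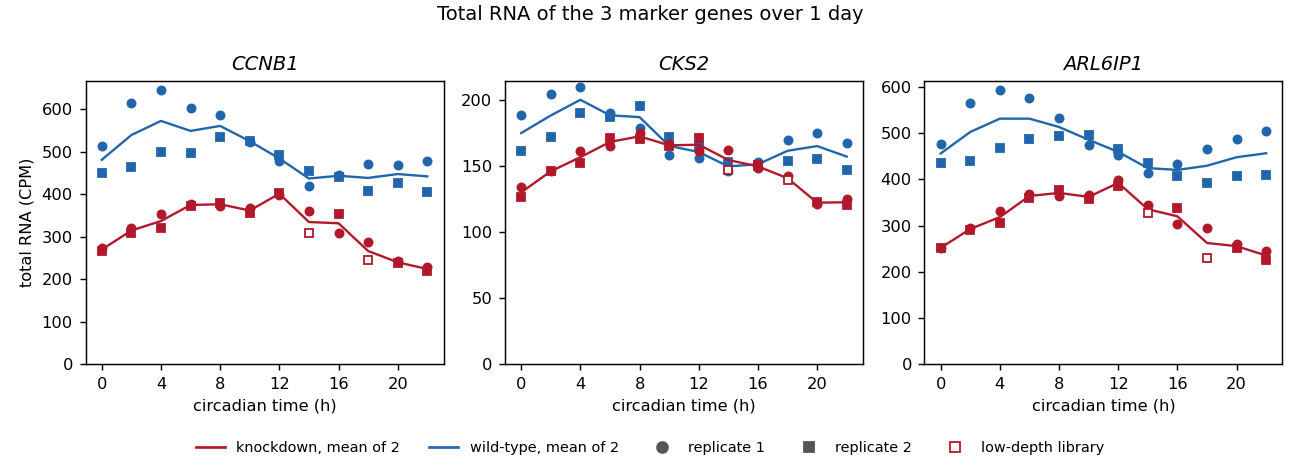
Total RNA in CPM (y axis, from 0) against circadian time in h (x axis) for CCNB1, CKS2 and ARL6IP1, with knockdown in red and wild-type in blue, 1 point per library and lines through the mean of 2. Knockdown CCNB1 climbs to 398 and 404 CPM at CT12 and falls to 229 and 219 at CT22, and open squares mark the low-depth libraries.

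The 250 bases before the start site of 6 mitotic genes are shown because these genes share the wave: the 3 markers, and CCNB2, CDC20 and PLK1, which peaked later. They are RefSeq starts on GRCh38.p14, read 5′ to 3′ on the gene's strand. Capitals mark TTTGAA (the CHR core), CCAAT (the site of NF-Y) and CACGTG (the E-box) on either strand, so that TTCAAA and ATTGG are the first and second of these read backwards. No matches overlap in these windows.
CCNB1, chr5:69166900-69167149, strand +: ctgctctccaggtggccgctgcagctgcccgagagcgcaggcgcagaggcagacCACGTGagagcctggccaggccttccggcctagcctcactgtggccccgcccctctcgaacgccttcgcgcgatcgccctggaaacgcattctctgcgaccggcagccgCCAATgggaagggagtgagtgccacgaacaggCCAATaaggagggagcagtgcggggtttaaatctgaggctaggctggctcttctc
CKS2, chr9:89310945-89311194, strand +: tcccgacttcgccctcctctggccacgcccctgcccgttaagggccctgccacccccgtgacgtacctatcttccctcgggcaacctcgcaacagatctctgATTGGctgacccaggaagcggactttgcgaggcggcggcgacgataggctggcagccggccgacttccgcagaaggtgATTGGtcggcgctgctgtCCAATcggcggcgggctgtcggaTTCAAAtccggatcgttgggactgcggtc
ARL6IP1, chr16:18801550-18801799, strand -: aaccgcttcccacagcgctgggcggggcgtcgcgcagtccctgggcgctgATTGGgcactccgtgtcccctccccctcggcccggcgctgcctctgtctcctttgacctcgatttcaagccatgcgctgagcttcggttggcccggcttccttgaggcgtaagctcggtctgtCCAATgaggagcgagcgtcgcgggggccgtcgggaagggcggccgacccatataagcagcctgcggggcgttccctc
CDC20, chr1:43358731-43358980, strand +: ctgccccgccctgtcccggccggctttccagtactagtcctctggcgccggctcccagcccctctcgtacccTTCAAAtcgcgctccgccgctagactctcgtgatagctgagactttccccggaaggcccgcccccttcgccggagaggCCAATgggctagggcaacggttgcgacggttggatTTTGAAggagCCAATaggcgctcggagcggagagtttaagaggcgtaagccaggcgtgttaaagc
CCNB2, chr15:59104896-59105145, strand +: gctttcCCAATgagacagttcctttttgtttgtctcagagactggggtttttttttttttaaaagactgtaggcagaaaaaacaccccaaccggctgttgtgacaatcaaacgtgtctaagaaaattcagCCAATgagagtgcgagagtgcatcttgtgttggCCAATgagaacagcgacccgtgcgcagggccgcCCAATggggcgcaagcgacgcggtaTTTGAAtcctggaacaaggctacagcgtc
PLK1, chr16:23678639-23678888, strand +: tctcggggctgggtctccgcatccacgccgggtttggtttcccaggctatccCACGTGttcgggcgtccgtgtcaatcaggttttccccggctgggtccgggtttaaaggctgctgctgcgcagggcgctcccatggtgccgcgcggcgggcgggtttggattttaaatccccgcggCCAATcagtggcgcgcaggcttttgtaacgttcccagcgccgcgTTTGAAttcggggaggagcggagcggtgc
TTTGAA begins 29 bases before the start in CKS2 (read backwards), CCNB2 and PLK1, and 65 and 178 bases before it in CDC20 (the second read backwards). CCNB1 and this start of ARL6IP1 hold 2 CCAAT each and no TTTGAA, and another listed start of ARL6IP1 holds no CCAAT. CCNB1 and PLK1 each hold 1 CACGTG near the far end of the window. Over the table's whole windows (250 bases before to 50 after a start), 36 of 58 starts of the mitotic genes described below held TTTGAA on either strand (62.1%), against 10.7% of 15564 starts of the genes tested and 15.2% of all 35116 starts in the table. CCAAT stood in 81.0% of the mitotic starts and 34.5% of those of all genes tested, and both stood together in 56.9% and 4.20%. CACGTG stood in 8.62% and 9.10%, so this E-box was about as frequent in mitotic starts as elsewhere. S phase genes had TTTGAA in 4.65% and CCAAT in 62.8% of 43 starts. A match is letters in a window, not a measured site.

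Over all genes, the plain cosine and the cosine with a drift gave different pictures. Without a drift, 4304 of 13261 genes passed the threshold (adjusted p of 0.05), which is 32.5%, and the median amplitude of all genes was 0.10 (log2). Their peaks fell in 2 clusters, 1699 between CT 3 and 8 and 1632 between CT 14 and 20, where a steady fall or rise over 1 day also lands. A straight line alone passed in 4495 genes (33.9%), 2191 higher late (16.5%) and 2304 lower late (17.4%). With the line in the model, 572 genes kept a wave past the threshold (4.31%), of which 564 had also passed without it. Their peaks sat elsewhere: 258 (45.1%) between CT 8 and 13 and 178 (31.1%) between CT 20 and 1. The line takes up much of a wave that peaks between CT 3 and 8 or CT 14 and 20, and little of one in these later windows. The model with the line thus finds waves most readily there, and the share of peaks there is set in part by the model. A gene that passes only without the line may have a wave, a steady change or both. Without the low-depth libraries the counts were 5069 (38.2%) and 1228 (9.26%), and 569 of the 572 remained past the threshold. Without replicate 1 at CT08, 809 genes passed with the drift and 4559 without it. A test for any difference among the 12 times passed in 2350 genes (17.7%), and in 3692 without the low-depth libraries.

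**Figure D2:**
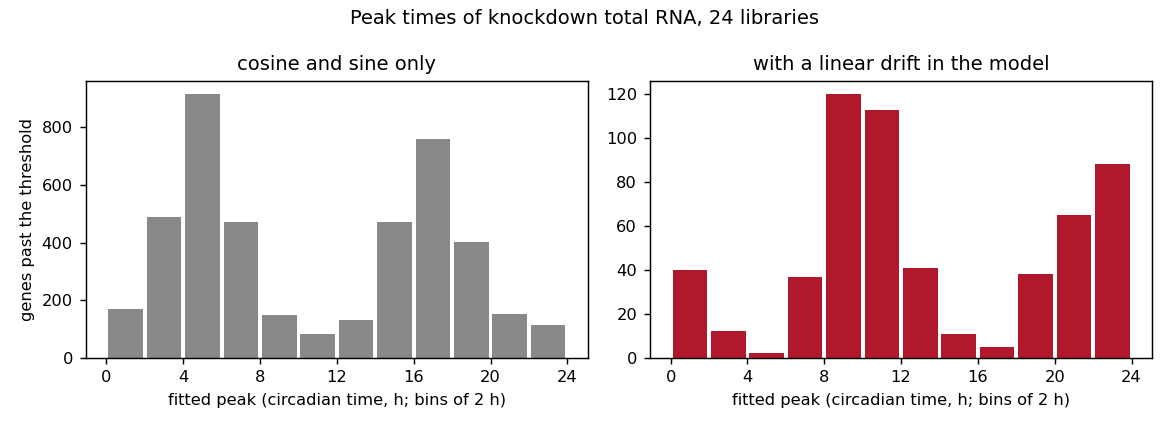
Number of genes past the threshold (y axis, from 0, scales differ) by fitted peak time in bins of 2 h (x axis), with cosine and sine only on the left and with a linear drift in the model on the right. The left panel is highest at CT 4 to 6 (915 genes) and CT 16 to 18 (758 genes), and the right panel at CT 8 to 10 (120 genes) and CT 22 to 24 (88 genes).

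The mitotic list, 55 genes of G2 and M phase, carried the wave most fully. Of its 55 members 54 passed without the drift (32.5% of all genes did) and 53 with it (4.31% of all genes), and all 55 passed in both models without the low-depth libraries. The median amplitude of the list was 0.36 without and 0.26 with the drift, against 0.10 and 0.08 over all genes tested, of which 984 passed with an amplitude of at least 0.25 (7.42%). With the drift, 51 of the 55 passed with a peak between CT 8 and 13, where 1.95% of all genes did. The summed level of the 55 genes ran from 4930 CPM at CT22 to 8926 CPM at CT06, a ratio of 1.81. At single genes the ratio of the highest to the lowest time mean was 1.41 to 2.31 with a median of 1.94. Time means were highest at CT06 in 34 members and at CT12 in 11, and lowest at CT22 in 46. In bulk RNA, fewer cells in a phase and less RNA per cell cannot be told apart.

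Within the list the fitted peaks followed an order. They are parameters of a model and not the times of highest RNA. Time means were highest at CT06 in 34 of the 55 members, and 41 dipped at CT10, as described below. The median fitted peak of the members that passed was CT 8.08 without and CT 10.3 with the drift. CDK1, the kinase that drives mitosis, came first with the drift in the model, at CT 7.70. It stood at 265 and 270 CPM at CT06 against 120 and 112 at CT22, the largest amplitude of the list (0.53 ± 0.06 without the drift). HMMR (CT 8.37), a spindle assembly factor, and TOP2A (CT 8.85), the topoisomerase that untangles chromosomes, followed. Genes of spindle and centromere filled the middle: AURKA at CT 9.81, KIF2C at CT 10.2, CENPF at CT 10.2, BUB1 at CT 10.5 and NEK2 at CT 10.6. The last were CDC20 (CT 11.9), which activates the anaphase-promoting complex, PTTG1 (securin, CT 12.1), BIRC5 (survivin, CT 12.1), the phosphatase CDKN3 (CT 12.1), PLK1 (CT 12.1) and CDC25B (CT 13.3). PTTG1 was highest at CT12, with 236 and 244 CPM, and lowest at CT22, with 156 and 144. CDKN3 was highest at CT14, with 138 and 162 CPM (the second in a low-depth library), and lowest at CT20, with 91.1 and 92.5. Without the drift the order was alike at its ends, with CDK1 at CT 6.34 ± 0.40 h and PTTG1 at CT 11.1 ± 0.38 h. These 2 peaks lay further apart than their standard errors, while neighbours in the middle of the list, such as KIF2C and CENPF, did not. PLK1, CDKN3 and CDC25B each had their highest value in the low-depth library at CT14. Peak times without the low-depth libraries are not given for them, so their late places are uncertain.

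CKS1B and MKI67 were the members that missed. CKS1B passed without the drift only (adjusted p = 0.000174, and 0.133 with it). MKI67, the Ki-67 antigen, passed in neither model (adjusted p = 0.148 and 0.182). The low-depth libraries read 186 and 158 CPM of MKI67 at CT14 and CT18, beside 113 and 84.9 CPM in replicate 1. Without the low-depth libraries the adjusted p of MKI67 was 0.0023 without the drift and 0.00357 with it, and that of CKS1B 3.82e-05 and 0.00547. CDC25B likewise read 84.8 and 69.1 CPM in the low-depth libraries and 54.3 and 42.6 in replicate 1.

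**Figure D3:**
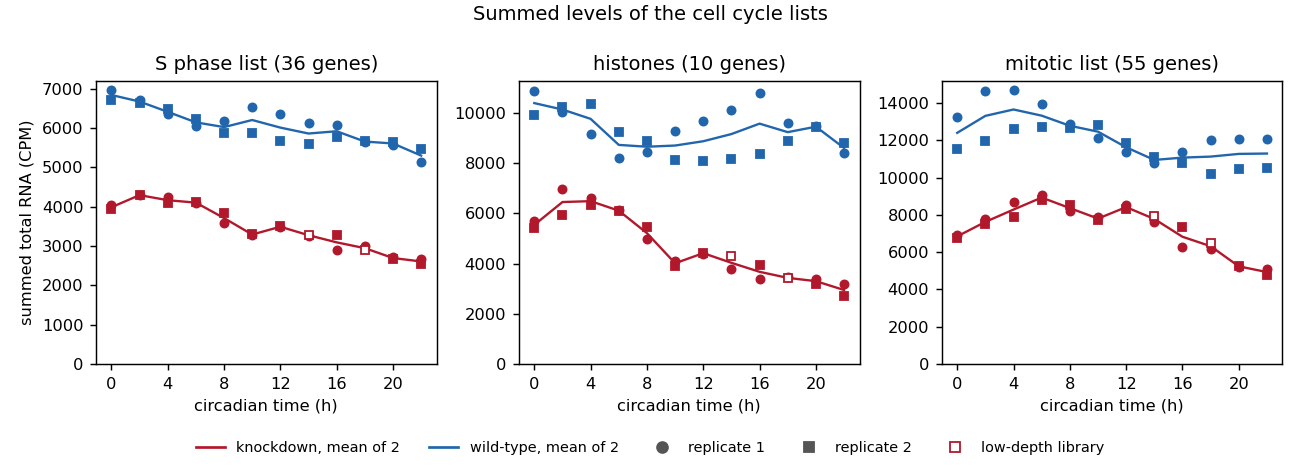
Summed total RNA in CPM (y axis, from 0) against circadian time in h (x axis) for the S phase list, the histones and the mitotic list, knockdown in red and wild-type in blue, 1 point per library and lines through the mean of 2. Knockdown sums peak at CT02, CT04 and CT06 in that order and are lowest at CT22, and open squares mark the low-depth libraries.

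DNA replication genes came earlier and fell more steadily. Of 36 genes on the S phase list 35 passed without the drift, with peaks from CT 2.90 to 7.29 (median CT 5.24), and 35 had a downward line past the threshold (17.4% of all genes did). The median change along that line from CT00 to CT22 was -0.79 (log2), against 0.00 over all genes. At the peak times of most of this list the line takes up much of a wave. With the drift, 7 of the 36 kept a wave. CCNE2, the cyclin E2 that opens S phase, was earliest of these at CT 1.04 and read 26.2 and 27.8 CPM at CT02 and 14.4 and 8.97 at CT14, the second of these in a low-depth library. MCM6, a subunit of the replicative helicase, peaked at CT 23.0 in that model (adjusted p = 0.0101). RRM2 and RRM1, the subunits of ribonucleotide reductase, peaked at CT 9.73 and 8.88, MCM7 at CT 9.70, the primase PRIM1 at CT 8.80 and thymidine kinase TK1 at CT 10.0. CDC6, which loads the helicase, was highest at CT02 (144 and 156 CPM) and lowest at CT22 (73.5 and 70.2 CPM). The sliding clamp PCNA (adjusted p = 6.25e-06), cyclin E1 (CCNE1, 3.68e-06) and the flap nuclease FEN1 (1.35e-05) had the lowest p-values of the list without the drift, and none of these 3 passed with it (adjusted p = 0.0664, 0.104 and 0.124). TYMS, thymidylate synthase, was the member that did not pass (adjusted p = 0.104).

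All 10 histone genes tested passed without the drift, at CT 4.86 to 5.58, where the line takes up much of a wave, and none with it. Their summed level was 6488 CPM at CT04 and 2949 CPM at CT22, a ratio of 2.20, and each had a downward line past the threshold, with a median of -1.12 (log2). HIST1H1C, a linker histone, had 1400 and 1328 CPM at CT04 and 755 and 628 at CT18. HIST1H2BJ fell from 784 and 729 CPM at CT04 to 312 and 252 at CT22. Histone genes have near-identical copies between which reads may be split, and most lack poly(A) tails, so their values are uncertain.

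A second feature of the cell cycle genes was a dip at CT10. The level at CT10 lay under those at CT06 and CT12 in both replicates in 41 of the 55 mitotic genes, 25 of the 36 S phase genes and 10 of the 10 histones, against 15.2% of all genes tested. Genes that fall over the day meet the CT06 condition easily. The rise from CT10 to CT12 alone was seen in both replicates in 45, 25 and 10 of these genes, against 28.5% of all genes. It was small, with median ratios of 1.09, 1.05 and 1.11, against 1.00 over all genes. CENPA, the centromeric histone, had 94.6 and 95.3 CPM at CT06, a mean of 78 at CT10 and a mean of 88 at CT12. The test of a 12-h term on top of the 24-h wave passed in 241 genes (1.82%), of which 34 were mitotic, 22 S phase and 10 histones. The lowest p-values belonged to TK1, MCM7, KIF2C, CENPA (adjusted p = 0.00208 each), TACC3 and LRRC20 (0.00262 each). LRRC20, a leucine-rich repeat protein, had no 24-h wave past the threshold (adjusted p = 0.0918). The count rested on few times: it was 22 without CT10, and 0 with a linear drift in the model, where 1075 genes had an unadjusted p under 0.05 in limma.

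The replicates, fitted apart, gave like peak times where waves were strong. Replicate 1 alone passed 1942 genes (14.6%) and replicate 2 alone 1096 (8.26%). Peaks lay within 3 h of each other in 52.5% of all genes, in 85.6% of those that passed in replicate 1 and in 90.2% of those that passed in replicate 2. On the mitotic list 53 of 55 lay within 3 h, with MKI67 and CDC25B outside, and replicate 2 peaked later in 52 of the 55 (median difference 1.11 h). On the S phase list all 36 lay within 3 h, with a median difference of 0.527 h.

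Outside the lists, 193 of the 258 genes with a drift-model peak between CT 8 and 13 remained to be named. SUN2, which links the nuclear envelope to the cytoskeleton, had 41.3 and 37.5 CPM at CT00 and 72.4 and 80.3 at CT12. Its amplitude was 0.42 ± 0.04 and its peak CT 11.6 in both models (adjusted p = 1.33e-07 with the drift). TNFAIP8L1 peaked at CT 10.1 (amplitude 0.36 ± 0.03, adjusted p = 2.84e-07), with 49.7 and 50.4 CPM at CT12 against 27.1 and 29.7 at CT00. SAPCD2, a regulator of spindle orientation, peaked at CT 12.7 (0.45 ± 0.05, adjusted p = 5.63e-07). Unlike the mitotic list, these 3 genes were lowest at CT00 and not at CT22. Other genes by lowest p, chosen after their values were seen, were NEURL1B, DEPDC1, CEP55, NUF2, KIF4A, GPSM2 and PBK, with peaks from CT 9.52 to 11.4. CEP55 acts in abscission, NUF2 at kinetochores, KIF4A on chromosomes and GPSM2 in spindle orientation. TTTGAA stood in 26.2% of the 225 starts of the genes of this window that were on no list (10.7% of starts of all genes tested).

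The opposite window, CT 20 to 1, held 178 genes with smaller waves (median amplitude with the drift 0.14, against 0.19 between CT 8 and 13). None was mitotic, 174 were on no list, and TTTGAA stood in 10.4% and CCAAT in 27.9% of their starts. By lowest p, again chosen after their values were seen, the first were the zinc finger protein BNC2 (CT 21.2, adjusted p = 9.16e-05), PAQR4, the actin regulator CORO1C, the survival factor BCL2L1 (CT 21.2), the semaphorin receptor PLXNA2, ARHGAP18, LPHN2, NEK7, EXT1 and the kinase CDK6. BCL2L1 was at 368 CPM at CT22 and 242 at CT06 (time means). CDK6, which acts in G1, was at 1052 CPM at CT20 and 739 at CT14 (adjusted p = 0.00078). The lowest time means of these 10 genes lay between CT06 and CT14.

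Of the 20 clock genes tested, 8 passed without the drift, a share near the 32.5% of all genes, and 0 with it, where 4.31% of all genes passed, also without the low-depth libraries. Among activators, ARNTL was flat (0.06 ± 0.06, adjusted p = 0.734), ARNTL2 fell over the day with a cosine at CT 3.62 (0.22 ± 0.03, adjusted p = 8.61e-05) and CLOCK passed with an amplitude of 0.07 ± 0.02 (adjusted p = 0.0253). NPAS2 did not pass (adjusted p = 0.231). Among repressors, PER2 ranged from 22.4 to 33.7 CPM with a median of 26.5 (amplitude 0.14 ± 0.04, adjusted p = 0.0258), and wild-type PER2 from 5.10 to 27.7 CPM with a median of 14.5. NR1D2 (REV-ERB beta) passed with 0.21 ± 0.04 at CT 4.14 over 15.7 to 28.5 CPM (adjusted p = 0.000486). BHLHE40 passed with 0.30 ± 0.06 at CT 16.4 over 79.2 to 156 CPM (adjusted p = 0.00076), and BHLHE41 with 0.45 ± 0.12 (adjusted p = 0.0161, and 0.0524 without the low-depth libraries). PER1, PER3, CRY1, CRY2 and NR1D1 did not pass (adjusted p = 0.185, 0.721, 0.0517, 0.828 and 0.101). PER1 read 68.0 CPM in both low-depth libraries, and 39.4 CPM was its highest value in the other 22. NR1D1 lies over THRA on the other strand and had 0.245 to 4.11 CPM, so its value is uncertain. Of the outputs, WEE1, a kinase that holds back mitosis, passed with 0.26 ± 0.03 at CT 5.41 (adjusted p = 1.12e-05), and DBP with 0.25 ± 0.08 (adjusted p = 0.0367, and 0.0669 without the low-depth libraries). TEF, HLF, NFIL3, RORA and RORB did not (adjusted p = 0.111, 0.256, 0.484, 0.0582 and 0.254).

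**Figure D4:**
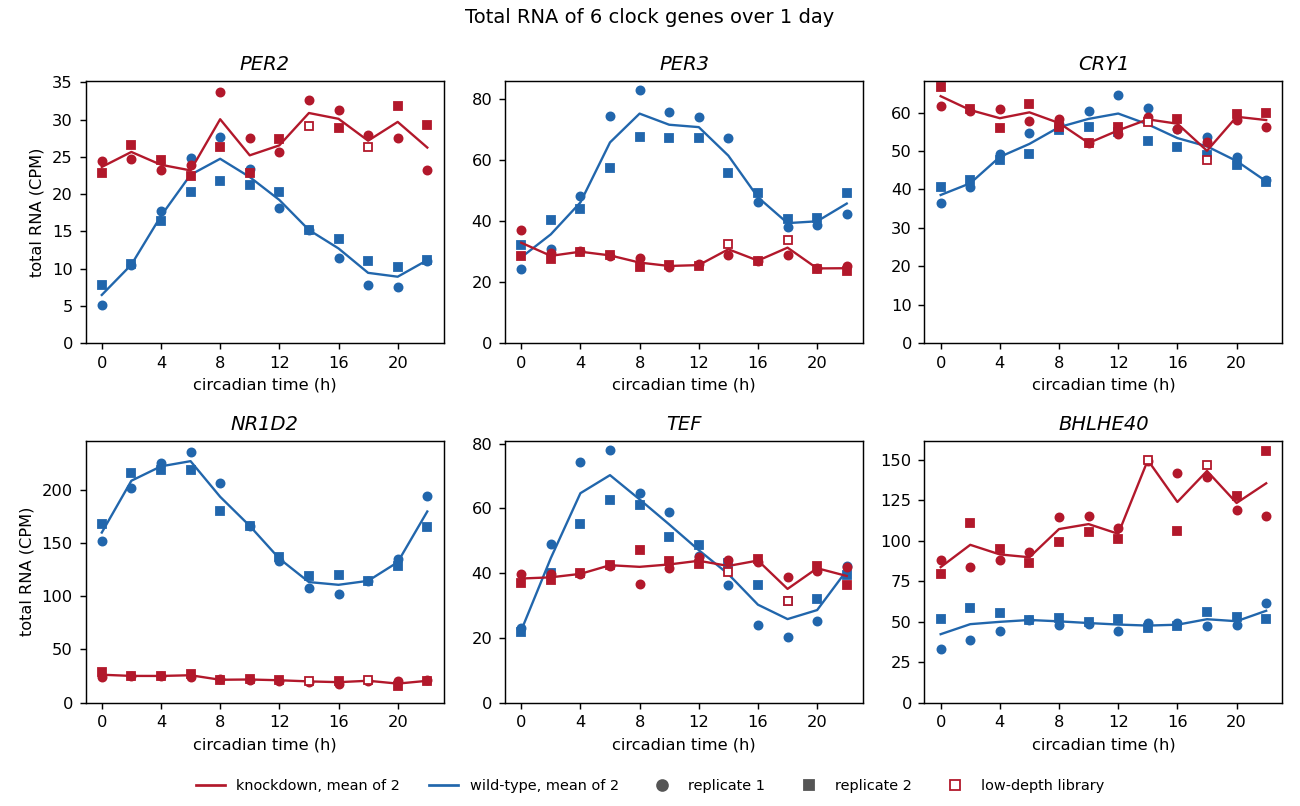
Total RNA in CPM (y axis, from 0) against circadian time in h (x axis) for PER2, PER3, CRY1, NR1D2, TEF and BHLHE40, knockdown in red and wild-type in blue, 1 point per library and lines through the mean of 2. Knockdown PER2 stays between 22.4 and 33.7 CPM while wild-type PER2 runs from 5.10 to 27.7 CPM, and open squares mark the low-depth libraries.

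The difference between the waves of knockdown and wild-type was tested over the 48 total RNA libraries and passed in 1426 of 13328 genes (10.7%). With the replicate number as a block within each treatment it passed in 2427, and wild-type libraries of a number deviate together (66 of 66 pairs of times with r over 0.1). With a drift per treatment it passed in 152 (1.14%). Without the low-depth libraries it passed in 1797. Clock genes and cell cycle genes differed in opposite directions. Of the 20 clock genes 14 passed (10 with a drift per treatment, 15 with the block), and the amplitude was larger in wild-type in 15. CRY1 (size of the difference 0.34 ± 0.04, adjusted p = 1.75e-07), ARNTL (0.69 ± 0.08, 2.15e-07) and PER2 (0.80 ± 0.09, 4.12e-07) had the lowest p-values of all genes. Of the 55 mitotic genes 50 passed (46 with a drift per treatment, 53 with the block). The amplitude was larger in knockdown in all 55, and in 7856 of the 12967 genes tested in both treatments. By p-value over all genes, FAM64A (0.39 ± 0.05, adjusted p = 5.49e-06), a mitotic gene, CCDC147 (0.66 ± 0.08, 8.78e-06) and SAPCD2 (0.42 ± 0.05, 9.37e-06) came next.

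In wild-type 2944 of 13207 genes passed without a drift (22.3%) and 24 with it (0.182%). These fits had no replicate term, though wild-type libraries of a number deviate together (median r 0.663, against 0.064 in knockdown). That shared shift widens the error of the fits, so the counts are not on a par with those of knockdown. The mitotic list had 47 of 55 past the threshold without and 0 with the drift, and a median amplitude of 0.16, against 0.36 in knockdown. Its wild-type peaks lay where the line takes up much of a wave. Peaks were later in knockdown in all 55 (6862 of 12967 genes tested in both treatments), by a median of 3.39 h, from a wild-type median of CT 4.84 to CT 8.10. The wild-type replicates did not peak together. The summed level of the list was highest at CT04 in replicate 1 (14677 CPM) and at CT10 in replicate 2 (12814 CPM). In knockdown it was highest at CT06 in both (9052 and 8801 CPM). The wild-type peaks and amplitudes thus come from 1 fit over courses that differ. CCNB1 in wild-type had 406 CPM in the lowest, 478 in the median and 645 in the highest library, with an amplitude of 0.20 ± 0.03 at CT 5.88. CKS2 ran from 147 to 210 CPM with 0.17 ± 0.03 at CT 4.28, and ARL6IP1 from 392 to 595 CPM with 0.16 ± 0.03 at CT 5.31. The wave of each of these 3 differed between treatments (adjusted p = 0.000515, 1.36e-05 and 2.61e-05). The summed mitotic level was lower in every knockdown library (4779 to 9052 CPM) than in any wild-type library (10214 to 14677 CPM). The S phase list had 23 of 36 genes past the threshold for the difference (2 with a drift per treatment) and the histones 10 of 10 (1 with a drift per treatment). Over all genes the difference passed in 10.7%, and in 1.14% with a drift per treatment.

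**Figure D5:**
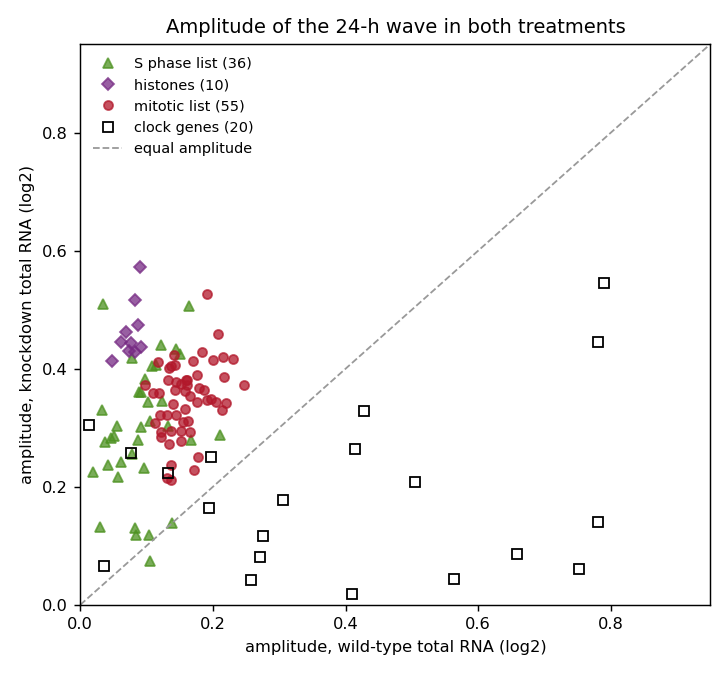
Amplitude of the 24-h wave (log2) in knockdown (y axis) against wild-type (x axis) for 55 mitotic genes, 36 S phase genes, 10 histones and 20 clock genes, 1 point per gene, with the dashed line at equal amplitude. All 55 mitotic genes lie above the line, and 15 of 20 clock genes lie below it.

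Ribosome footprints of the knockdown, the mRNA pieces held inside ribosomes, were sequenced at the same times. Of 11216 genes 1970 passed without the drift (17.6%) and 263 with it (2.34%). Of 54 mitotic genes tested 53 passed without and 52 with the drift, where the median peak was CT 10.5. Footprints of CCNB1 ranged from 347 to 698 CPM, with an amplitude of 0.36 ± 0.05 and a peak at CT 9.37 (adjusted p = 4.53e-05). ARL6IP1 had 0.35 ± 0.03 at CT 9.97 (adjusted p = 9.59e-08) and CKS2 0.25 ± 0.03 at CT 9.74 (adjusted p = 1.82e-05). UBE2S was the mitotic gene that did not pass in footprints. Of the 250 genes with a drift-model peak at CT 8 to 13 in total RNA that were tested in footprints, 122 passed there with the drift. Of 176 genes from CT 20 to 1, 31 did.

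The stress and signalling lists differed in how many members passed, and their counts are read against the 32.5% of all genes that passed without the drift and the 4.31% that passed with it (38.2% and 9.26% without the low-depth libraries). Immediate early genes, the first to answer growth signals, passed without the drift in 9 of 13 (32.5% of all genes) and in none with it, and 9 rose along a line (16.5% of all genes). JUNB had 19.2 and 19.2 CPM at CT00 and 56.9 and 43.0 at CT14 (amplitude 0.48 ± 0.08, adjusted p = 0.000545). FOSL2 (0.18 ± 0.03) and IER2 (0.28 ± 0.06) peaked at CT 15.97 and 16.52. EGR1 passed with 0.80 ± 0.21 (adjusted p = 0.0162), and with 0.50 without the low-depth libraries (adjusted p = 0.0177). It read 110 CPM in the low-depth library at CT18 and 17.9 in replicate 1. Endoplasmic reticulum chaperones passed in 6 of 17, and HSPA5 (BiP) rose from 146 and 145 CPM at CT04 to 224 and 247 at CT22. HERPUD1 and HSP90B1 were likewise highest at CT22. Matrix genes of bone passed in 10 of 17, among them COL5A1, SERPINH1 and SPARC (CT 15.97 to 17.39), and none passed with the drift.

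Beside 32.5% of all genes without the drift and 4.31% with it (38.2% and 9.26% without the low-depth libraries), targets of p53 passed in 9 of 21 (14 without the low-depth libraries), and 5 kept a wave with the drift: BBC3, CDKN1A, DDB2, FDXR and GDF15, at CT 7.79 to 10.5. GDF15, a stress cytokine, had 1.55 and 1.36 CPM at CT00 and 4.43 and 3.36 at CT14, the last in a low-depth library (adjusted p = 0.0109 with the drift). DDB2, a DNA damage sensor, had 115 and 114 CPM at CT00 and 148 and 158 at CT14. Heat shock genes passed in 9 of 15, and HSPA1A (CT 9.32, adjusted p = 0.000182), HSPA1B (CT 8.94) and DNAJB1 (CT 11.9) did so with the drift. HSPA1A and HSPA1B are near-identical copies, so their counts may be split between them. Of 16 interferon genes 6 passed (9 without the low-depth libraries) and 1 did with the drift (4 without them), IFIT1 (0.55 at CT 10.3, adjusted p = 0.00078), which had 2.06 and 2.05 CPM at CT00 and 5.45 and 4.86 at CT14.

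Amino acid stress genes under ATF4 passed in 13 of 27 (32.5% of all genes), and 1 kept a wave with the drift, a share near the 4.31% of all genes (6 without the low-depth libraries, beside 9.26%). Enzymes and transfer RNA synthetases such as WARS, PSAT1, SHMT2, MTHFD2 and AARS peaked at CT 2.05 to 4.74, while DDIT3, DDIT4, TRIB3 and SLC7A5 peaked at CT 14.9 to 18.8. SLC7A5, a leucine carrier, was the member that passed with the drift (CT 18.6, adjusted p = 0.00538), from 227 and 215 CPM at CT10 to 340 and 410 at CT20. Glycolytic and hypoxia genes passed in 13 of 26, BNIP3 and PGK1 early (CT 4.74 and 4.63) and SLC2A1 late (CT 15.9), and HK1 alone of the list with the drift (CT 22.6, adjusted p = 0.0111). Glucocorticoid targets, of interest because dexamethasone set the clocks, passed in 3 of 14 (KLF9, DUSP1 and CRISPLD2) and in none with the drift, shares no higher than those of all genes. YAP targets passed in 5 of 10, with CRIM1 at CT 2.39 and CTGF at CT 18.9, and ANKRD1 did so with the drift (CT 22.1, adjusted p = 0.0444, and 0.0514 without the low-depth libraries). Cholesterol and fatty acid genes passed in 4 of 24, among them FDPS, ACAT2 and SREBF1. NF-κB cytokine genes passed in 3 of 13 (LIF, RELB and CCL2), with LIF also passing with the drift (adjusted p = 0.0318). Cytosolic ribosomal protein genes passed in 6 of 78 (13 without the low-depth libraries), among them RPL28 and RPLP1. The median amplitude of the ribosomal protein genes was 0.04, against 0.10 over all genes.

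The largest amplitudes by the naming rule (called, at least 1 log2 CPM on average, replicate peaks within 3 h) belonged mostly to weakly expressed genes that rose late. SEPP1, a selenium carrier, ranged from 0.258 to 9.79 CPM with a median of 2.42 (1.03 ± 0.25, adjusted p = 0.00995). KCNA1, a potassium channel, had 1.18 and 0.993 CPM at CT00 and 5.28 and 5.73 at CT18 (0.98 ± 0.11, adjusted p = 3.1e-06), and kept its wave with the drift (adjusted p = 0.015). SYT12, a synaptotagmin, rose from 4.71 and 4.34 CPM at CT00 to 20.2 and 21.1 at CT16 (0.82 ± 0.12, adjusted p = 0.000109). Its adjusted p with the drift was 0.0525, and 5.4e-05 without the low-depth libraries. ARHGAP25 (CT 17.4), the chemokine CCL2 (CT 17.5), APOL1 (CT 15.3), OASL (CT 16.9) and the transcript DQ580909 (CT 16.6) also peaked late. METTL7A peaked at CT 12.99 (0.66 ± 0.10) and passed with the drift (adjusted p = 0.00124), with 5.06 and 5.02 CPM at CT12. The early ones were the histone HIST1H2AD (CT 5.01, 99.0 and 91.4 CPM at CT04) and ESCO2, which ties sister chromatids in S phase (CT 5.59). ESCO2 had 61.1 and 58.7 CPM at CT04 and 23.8 and 22.4 at CT22 and passed with the drift (adjusted p = 0.00964).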

How the data were processed

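The authors aligned reads with STAR 2.3.0e to GRCh37 (hg19), counted them per gene with HTSeq 0.5.4p1 and normalised them with DESeq2, per the submitters' processing notes. Whether counting used strand is not given in the sources used here. Each deposited table holds a signal in which the authors scaled every library's gene counts by a single factor. In every library 100% of values were whole multiples of 1 step (tolerance 0.001 read), which gave back the reads. Library depth was 2.56 to 20.1 M reads, and the lower it is, the wider the error of genes with few reads. Columns name only the time, and the table they stand in gives the rest.

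Reads were scaled by TMM over the 48 total RNA libraries (edgeR 4.0.16) and tested as log2 CPM with a pseudocount of 0.25 by limma-trend (limma 3.58.1, R 4.3.3, robust empirical Bayes), after filterByExpr with a minimum count of 10, which kept 13261 of 19438 genes. The pseudocount shrinks fold changes at low levels. F tests took a cosine and a sine of 24 h, with and without a linear term in hours. Every adjusted p is Benjamini-Hochberg over all genes tested, from limma. The count tests of edgeR and of DESeq2 1.42.0 were alternatives, run on the recovered reads. Replicate numbers paired the knockdown libraries only in part (21 of 66 pairs of times had r over 0.1, median 0.064, highest 0.68).

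The members and gene lists were chosen with earlier results of these data known. Genes named are CCNB1, CKS2, ARL6IP1, the clock genes tested, the 12 largest amplitudes under the stated conditions, up to 3 lowest p-values of each other list, and the lowest p-values with the drift (8), of the 12-h term (6) and of the difference from wild-type (6); others are said to be chosen after their values were seen or are members of a list described in order. Promoters were matched by current symbol or unambiguous synonym for 10619 of 13261 genes tested and 47 of 55 mitotic genes. The fits were tested on simulated counts with independent noise and no drift, and the outcome is not given here.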

Additional observations from a re-analysis of the deposited data

Results flagged for a closer look

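The 24-h wave differed between knockdown and wild-type in 1426 genes (10.7% of those tested) by the test of the difference itself. Among the 94 genes named by rule, 48 passed. Of these 48, 25 also passed with a drift per treatment, where 1.14% of all genes did. Some of the 94 were named for a low p in this same test or for strong knockdown waves, so a high share was built in. Sizes below are amplitudes of the difference between the 2 waves (log2). Among clock genes they were 1.15 for NR1D1, 0.80 for PER2, 0.73 for HLF, 0.69 for ARNTL, 0.61 for TEF, 0.60 for PER3, 0.39 for CRY2, 0.35 for PER1, 0.34 for CRY1, 0.34 for RORA, 0.30 for NFIL3, 0.30 for NR1D2, 0.29 for BHLHE40 and 0.18 for WEE1. Among mitotic genes and others with peaks near CT 8 to 13 they were 0.42 for SAPCD2, 0.39 for FAM64A, 0.37 for CENPA, 0.36 for SUN2, 0.34 for DLGAP5, 0.31 for TNFAIP8L1, 0.30 for KIF2C, 0.30 for ARL6IP1, 0.29 for PTTG1, 0.27 for CCNB1 and 0.24 for CKS2. S phase genes and histones gave 0.62 for HIST1H2AD, 0.53 for HIST1H2BJ, 0.50 for ESCO2, 0.48 for HIST1H1C, 0.46 for HIST1H2BD, 0.29 for FEN1, 0.22 for TK1, 0.21 for MCM7 and 0.15 for PCNA. Stress and signalling genes gave 1.00 for EGR1, 0.66 for CRISPLD2, 0.34 for HSPA5, 0.30 for SLC7A5, 0.29 for IER2, 0.28 for LIF, 0.20 for HSPA1A, 0.16 for HSPA1B, 0.14 for DDB2 and 0.10 for DNAJB1. The remaining genes were CCDC147 at 0.66, SERPINH1 at 0.14, FDPS at 0.13 and HK1 at 0.11. Without the low-depth libraries 4 of the 48 missed the threshold: BHLHE40 (0.26, adjusted p = 0.0643), EGR1 (0.77, 0.0641), PCNA (0.13, 0.0608) and CRISPLD2 (0.53, 0.0722). PER1 then had 0.24 (adjusted p = 0.000441) and NR1D1 0.84 (adjusted p = 0.0054). SYT12, ARHGAP25, DQ580909, TRIB3 and HERPUD1 did not pass with all libraries and passed without these 2.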

How the results depend on the processing

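The fitted peak time did not move far, and the side of the threshold held, for the 24-h wave of CCNB1, CKS2 and ARL6IP1. This was so under every setting tried, with and without the drift. The difference of CCNB1 from wild-type lost its call without replicate 1 (0.20, adjusted p = 0.0732). Counts depended on the model. With the linear drift, 2190 genes passed with voom and quality weights, 1273 with the DESeq2 likelihood ratio, 1228 without the low-depth libraries and 1279 without them and with the replicate block. A change of any shape passed in 5051 genes with voom and 3692 without the low-depth libraries, and could not be fitted without a replicate. The 12-h term passed in 654 genes with voom, 499 without the low-depth libraries and 0 with a linear drift added. The difference from wild-type passed in 2976 genes with voom, 2427 with the replicate block and 152 with a linear drift per treatment, and footprints in 263 with a drift. Leaving out a replicate, a library or a time gave 1096 to 4559 genes for the 24-h wave, 67 to 809 with the drift (196 without CT00, 341 without CT12, 369 without CT20), 1513 to 3040 for any shape, 0 to 429 for the 12-h term, 388 to 1712 for the difference, 468 to 2007 for footprints and 1608 to 4697 for the line. The fitted peak time moved far for SERPINH1 in the difference with a drift per treatment (0.0475, adjusted p = 0.837). It also did for FDXR (0.0421, 0.820) and KLF9 (0.0679, 0.941) in footprints with a drift. None of them passed there, so these peak times are uncertain. In all these the cause was not tested. Under the replicate block no gene named by rule lost its difference call. Same-numbered knockdown libraries deviated together less than those of wild-type (21 of 66 pairs of times with r over 0.1, against 66 of 66). At 2.56 M reads, genes with few reads carry the widest error.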
